A study of Mus musculus with 4 samples.

Results

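The SPARC family of secreted matrix proteins was examined in the mouse embryonic mandible, taken whole at E11.5. The members were 8 genes (Smoc1, Smoc2, Sparc, Sparcl1, Spock1, Spock2, Spock3 and Fstl1), and they were represented by every array probe annotated to one of these symbols. All 8 genes were measured, through 10 of the 29922 probes on the array, and the array named 16637 genes in all. The set was chosen by gene family around Smoc1 and Smoc2, selected on the log2 fold changes that these genes show between Bmp4 OE and control arrays. All values of the Bmp4 comparison are therefore given as a description of these genes, and the adjusted p-values beside them are not independent evidence about the family.

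The 2 control arrays held RNA of wild-type mandibles and the 2 Bmp4 OE arrays RNA of mandibles that overexpress Bmp4, a bone morphogenetic protein (BMP), conditionally, both on the C57BL/6 background. Overexpression was switched on with doxycycline for 24 hours. The labels name neither the promoter or Cre line that drives the transgene nor the number of embryos behind each RNA, and whether controls received doxycycline is not given in the sources used here, so drug, genotype and Bmp4 dose cannot be told apart. Nothing states that arrays of a group came from separate litters, and the errors below cover the spread among these RNA samples alone, which could be technical.

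Proteins of this family are called matricellular because they sit in the extracellular matrix and modulate how cells attach and signal rather than building fibres. They share a follistatin-like module and, in most members, a calcium-binding domain first described in SPARC. SMOC proteins lie in basement membranes and carry thyroglobulin-type modules. Their relatives in frog and fly act on BMP signalling outside the cell, and human SMOC2 is known for its role in tooth development. Follistatin-like 1 binds BMP ligands, and the testicans encoded by the Spock genes are proteoglycans that in part restrain proteases.

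Smoc1 and Smoc2 were much lower in Bmp4 OE mandibles, Spock1 was moderately lower at 1 of its 2 probes, and Sparc and Sparcl1 were higher. Of the 8 genes, 3 fell, 2 rose and 3 (Spock2, Spock3 and Fstl1) did not pass an adjusted p of 0.05 in limma, when each gene was represented by its brightest probe. This is 62.5% of the family, against 16.9% of all named genes in either direction, 7.39% for rises and 9.54% for falls. The median absolute log2 fold change was 0.82 in the family and 0.23 over all named genes, while the signed medians were 0.20 and 0.00. The members went in both directions. Smoc1 and Smoc2 alone among the 8 met the rule stated in the study's design (at least 2-fold, here with the unadjusted p of limma under 0.05), as did 3.32% of named genes.

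**Figure D1:**
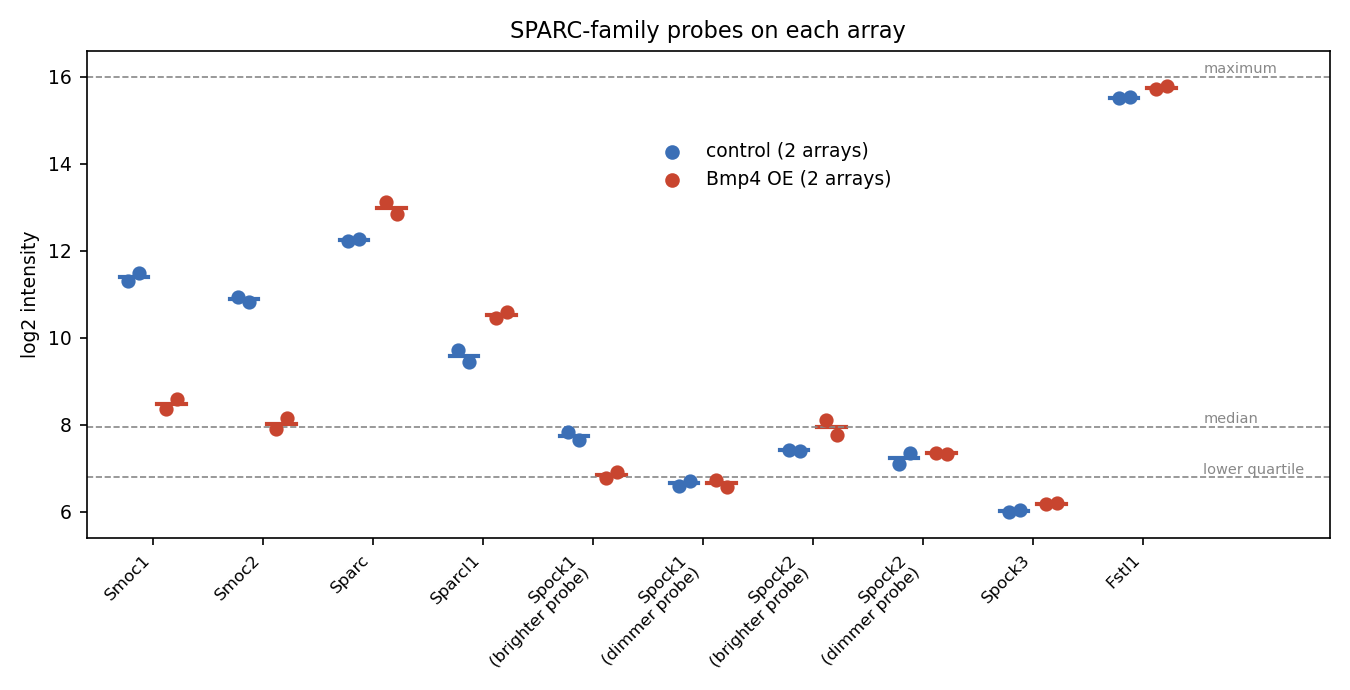
Log2 intensity of the 10 SPARC-family probes on each array, with control arrays in blue and Bmp4 OE arrays in red (2 each). Horizontal bars are group means, and dashed lines mark the lower quartile (6.79), median (7.95) and maximum (16) of all probes on an array. Smoc1 and Smoc2 drop by nearly 3 log2 units to around the median, while Fstl1 lies just under the maximum and Spock3 below the lower quartile in both groups.

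Smoc1 encodes a secreted modular calcium-binding protein and had, beside Smoc2, the largest fall in the family. Its single probe (mMC006410) read log2 intensities of 11.30 and 11.49 in the controls and 8.36 and 8.60 in the Bmp4 OE samples. Both Bmp4 OE arrays lay far below both control arrays, and the gaps between arrays of 1 group were 0.19 and 0.24. The log2 fold change was -2.92 ± 0.14 (SE), a fall of 7.54-fold with a 95% interval of 5.97 to 9.52 (limma, adjusted p = 0.00182). Ranked by signed log2 fold change, Smoc1 stood 9 from the bottom among 16637 named genes.

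Smoc2, the closest paralog of Smoc1, fell by nearly the same factor. Its probe (mMC011279) read log2 intensities of 10.94 and 10.83 in controls and 7.90 and 8.15 in Bmp4 OE samples. Again the groups were widely separated. The log2 fold change was -2.86 ± 0.13 (SE), a fall of 7.26-fold with a 95% interval of 5.81 to 9.07 (limma, adjusted p = 0.00173), and it stood 10 from the bottom of all named genes. Over the 4 pairings of a Bmp4 OE with a control array, the log2 difference ran from -3.13 to -2.70 for Smoc1 and from -3.04 to -2.68 for Smoc2. The log2 fold changes of these genes differed by 0.055, which is less than the standard error of either, and that difference was not tested. Each gene was read by a single probe, and whether either probe also reads the paralog cannot be told here.

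The fall took both genes from well above the array's middle to close to it. In controls Smoc1 and Smoc2 were brighter than 87.7% and 84.0% of all probes, and in Bmp4 OE samples than 58.4% and 51.3%. All 4 arrays read both probes above the lower quartile of 6.79. A reading near the middle of such a distribution is not a detection call, so how much transcript of either gene was left cannot be read from the table. In RNA of whole mandibles, fewer cells expressing a gene and less RNA per cell cannot be told apart.

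**Figure D2:**
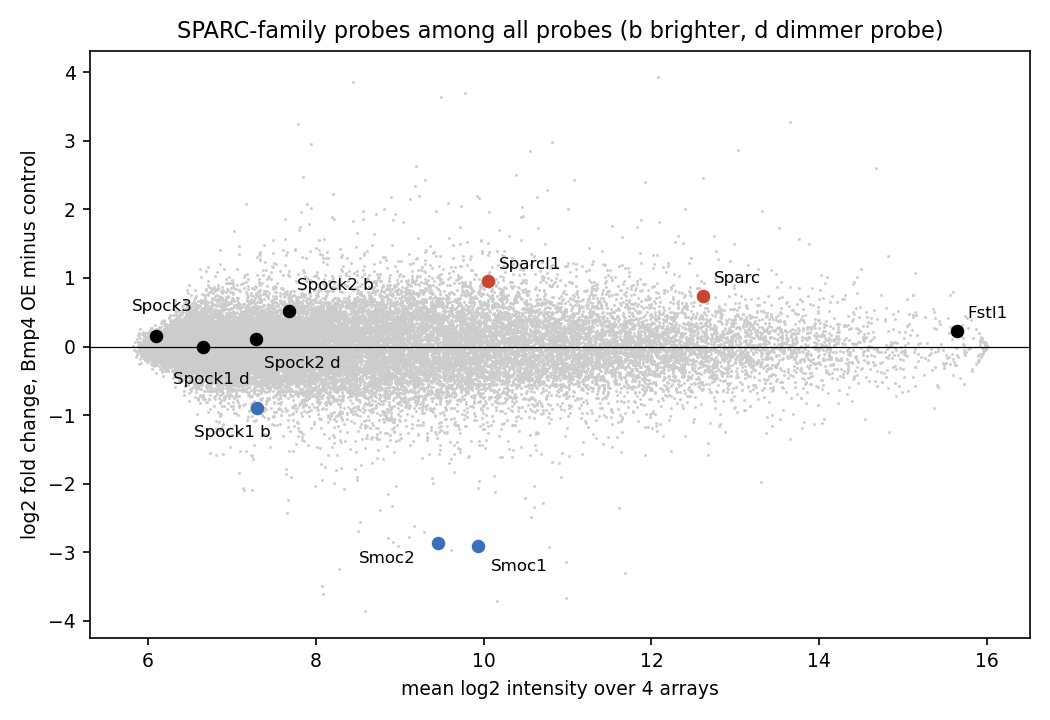
Log2 fold change of Bmp4 OE minus control (y axis) against the mean log2 intensity over 4 arrays (x axis) for all probes in grey and SPARC-family probes as larger points. Red and blue points passed an adjusted p of 0.05 in limma, black points did not, and b and d mark the brighter and dimmer probe of a gene. Smoc1 and Smoc2 lie at the lower edge of the cloud, at -2.92 and -2.86.

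Smoc1 and Smoc2, which were selected on their log2 fold changes, were among each other's nearest profiles over the 4 arrays. Likeness was measured as the Euclidean distance in log2 units between profiles centred on their own mean. Predicted genes, recognised by symbols such as those of the Gm and Rik type, were left out. The 5 genes nearest to Smoc1 were Nr5a2 at 0.139, Smoc2 at 0.219, Pantr1 at 0.227, Barx1 at 0.294 and Cyp1b1 at 0.385. Those nearest to Smoc2 were Pantr1 at 0.149, Nr5a2 at 0.188, Cyp1b1 at 0.199, Smoc1 at 0.219 and Bnc1 at 0.263. Nr5a2 encodes a nuclear receptor, Barx1 a homeobox factor of proximal jaw mesenchyme, Cyp1b1 a cytochrome P450 enzyme, Bnc1 a zinc finger protein and Pantr1 a non-coding RNA. With 4 arrays in 2 groups, this distance mostly reflects the size of the group difference, which ran from -3.15 for Barx1 to -2.62 for Bnc1 on the log2 scale.

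Sparc, which encodes the founding member, a collagen- and calcium-binding glycoprotein also called osteonectin, was higher in Bmp4 OE mandibles. Its probe (mMC010599) read log2 intensities of 12.22 and 12.27 in controls and 13.13 and 12.84 in Bmp4 OE samples. The groups did not overlap, and the Bmp4 OE arrays lay further apart (0.29) than the controls (0.05). The log2 fold change was 0.74 ± 0.13 (SE), a rise of 1.67-fold with a 95% interval of 1.33 to 2.10 (limma, adjusted p = 0.0256). By this value Sparc stood 672 from the top of the named genes.

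Sparcl1 encodes hevin, an anti-adhesive relative of SPARC that is known from blood vessels and brain. Its probe (mMC016865) read log2 intensities of 9.72 and 9.44 in controls and 10.46 and 10.60 in Bmp4 OE samples. Both Bmp4 OE arrays were above both controls. The log2 fold change was 0.95 ± 0.14 (SE), a rise of 1.93-fold with a 95% interval of 1.53 to 2.45 (limma, adjusted p = 0.0157). Sparc and Sparcl1 had overlapping intervals, and whether their rises differ was not tested.

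Because Sparcl1 is known from vessels, markers of vessel-associated cells are given beside its rise. Of 8 mural cell markers, 4 rose, 1 fell and 3 did not pass (62.5% called, against 16.9% of all named genes), with log2 fold changes of 2.95 for Rgs5, 0.92 for Acta2, 0.90 for Tagln, 0.78 for Kcnj8 and -0.52 for Pdgfrb. Acta2 had 4 probes, of which the brighter pair gave 0.92 and 0.69 and the dimmer pair -0.16 and -0.22. The 3 mural markers that did not pass were Notch3, Abcc9 and Cspg4, at 0.235, 0.155 and -0.055. The log2 of the summed intensity of this list was 13.10 in both controls and 13.48 to 13.49 in Bmp4 OE samples. Such a sum is weighted towards the brightest genes of a list, here Acta2 among them. Its brightest probe averaged 11.445 in controls and 12.36 in Bmp4 OE samples. Of 7 endothelial markers, Cldn5 rose by 0.56 on the log2 scale and 6 did not pass, with a median of 0.35 over the list. Those 6 were Kdr, Pecam1, Esam, Tek, Tie1 and Cdh5, at 0.42, 0.39, 0.35, 0.27, 0.18 and -0.06. The 14.3% called were no more than the share of all named genes. The log2 summed intensity of the endothelial list was 12.91 to 12.92 in controls and 13.21 to 13.22 in Bmp4 OE samples. None of the markers in these lists lay below the lower quartile on all 4 arrays, though Rgs5 did in both controls, and the part of such cells in the rise of Sparcl1 was not tested.

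Spock1, which encodes testican-1, gave different readings at its 2 probes. The brighter probe (mMR028581) read log2 intensities of 7.83 and 7.66 in controls and 6.78 and 6.92 in Bmp4 OE samples, with no overlap. Its log2 fold change was -0.90 ± 0.12 (SE), a fall of 1.86-fold with a 95% interval of 1.51 to 2.28 (limma, adjusted p = 0.0136). In the Bmp4 OE samples this probe had reached the lower quartile, where the scale is compressed. The dimmer probe (mMC026001) read 6.60 and 6.70 in controls and 6.72 and 6.58 in Bmp4 OE samples, below the lower quartile on all 4 arrays. Its log2 fold change was 0.00, with a 95% interval of -0.28 to 0.28, and it did not pass. The mean of both probes gave -0.45 and still passed (limma, adjusted p = 0.0267).

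Spock2, which encodes testican-2, also had a pair of probes, and neither passed. The brighter probe (mMC020596) read log2 intensities of 7.43 and 7.40 in controls and 8.12 and 7.76 in Bmp4 OE samples. The Bmp4 OE values were both above the controls but lay 0.36 apart. The log2 fold change was 0.53 ± 0.15 (SE), with a 95% interval of 0.16 to 0.89 (limma, adjusted p = 0.0686). The dimmer probe (mMR030302) read 7.10 and 7.36 in controls and 7.36 and 7.33 in Bmp4 OE samples, a log2 fold change of 0.12 with a 95% interval of -0.20 to 0.43, and its groups overlapped.

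Spock3 and Fstl1 sat at opposite ends of the measurable range. The Spock3 probe (mMC004662), for testican-3, read log2 intensities of 6.00 and 6.04 in controls and 6.17 and 6.19 in Bmp4 OE samples, close to the array minimum of 5.68. Its log2 fold change was 0.16 with a 95% interval of -0.09 to 0.41 and an adjusted p of 0.326 in limma. Such a reading gives only a bound on the gene, and a change in Spock3 was not detectable at this signal. The Fstl1 probe (mMC005352) read 15.51 and 15.54 in controls and 15.72 and 15.79 in Bmp4 OE samples, just under the maximum of 16. Its log2 fold change was 0.23 with a 95% interval of -0.02 to 0.48 (limma, adjusted p = 0.185), and the ceiling limits how large a rise could be seen there. Neither gene's groups overlapped, but in the brightest probes of named genes the groups failed to overlap in 63.3% of cases.

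**Figure D3:**
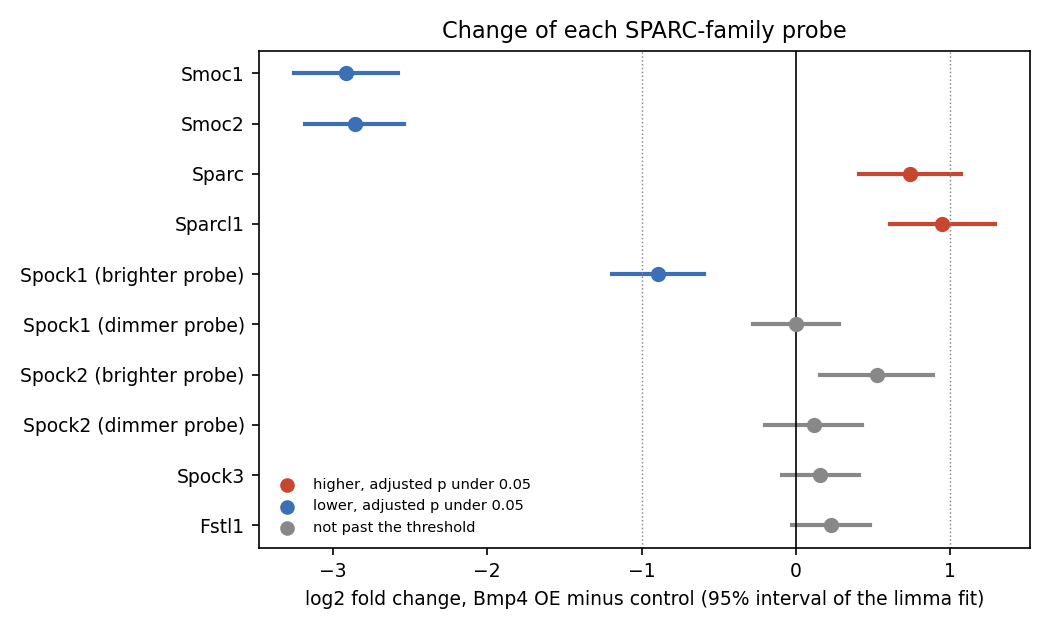
Log2 fold change of Bmp4 OE minus control for each SPARC-family probe, with the 95% interval of the limma fit over all probes. Red and blue points passed an adjusted p of 0.05, grey points did not, and dotted lines mark a 2-fold change. The intervals of Smoc1 and Smoc2 lie wholly beyond a 2-fold fall. Those of Sparc, Sparcl1 and the brighter probes of Spock1 and Spock2 exclude 0, although the Spock2 probe did not pass the adjusted threshold.

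RefSeq promoter windows (GRCm38.p6, 250 bases before to 50 after the annotated start) were matched for 5 of the 8 genes, namely Sparc, Spock1, Spock2, Spock3 and Fstl1. The bases upstream of Sparc, which rose, and of Spock1, which fell at its brighter probe, are shown as the matched members that passed in opposite directions. Capitals mark matches to CAGAC or its complement GTCTG, a short Smad-binding sequence, and to GGCGCC, a GC-rich Smad-binding sequence that reads the same on both strands. The Sparc window lies at chr11:55420081-55420330 and the Spock1 window at chr13:57908333-57908582, both on the minus strand and written 5′ to 3′.
Sparc: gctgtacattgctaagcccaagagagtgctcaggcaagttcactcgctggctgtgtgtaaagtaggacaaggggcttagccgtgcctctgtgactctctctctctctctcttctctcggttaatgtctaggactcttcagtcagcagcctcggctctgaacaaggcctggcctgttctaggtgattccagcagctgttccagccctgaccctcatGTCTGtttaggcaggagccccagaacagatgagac
Spock1: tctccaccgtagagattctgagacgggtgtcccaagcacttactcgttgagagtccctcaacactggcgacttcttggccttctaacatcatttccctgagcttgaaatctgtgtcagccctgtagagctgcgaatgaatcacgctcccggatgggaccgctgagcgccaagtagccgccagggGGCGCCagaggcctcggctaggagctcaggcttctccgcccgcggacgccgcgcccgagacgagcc

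With the first base of the gene counted as 0, the Sparc window held GTCTG at positions -35 and 15, of which the second lies past the stretch shown, and no GGCGCC. The Spock1 window held GGCGCC at -66 and no CAGAC or GTCTG. Of the 32851 mouse windows in the table, 49.6% held CAGAC on either strand and 11.9% held GGCGCC. The TATA sequence TATAAA, in 13.6% of all windows, was in neither gene's window, and the GC box GGGCGG, in 35.7%, was in Spock1 at -31 on the minus strand. The E-box CANNTG, in 72.3% of windows, occurred 3 times in Sparc and 1 time in Spock1. The Smad-Schnurri silencer element, a longer sequence with spaced Smad sites known from BMP-repressed genes in fly, was in neither, and in 0.667% of all windows. Both strands were searched, no matches of different motifs overlapped in these windows, and a match describes letters only.

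Genes related to the family by module, binding partner or function were read in the same fit, through 7 lists with 93 distinct measured genes. Of these, 14 rose, 15 fell and the rest did not pass, which makes 31.2% against 16.9% of all named genes, with a median log2 fold change of 0.03. These lists were drawn up with earlier results of these arrays known.

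Other matricellular genes went both ways, as the family did. Of 18 measured, 3 rose, 7 fell and 8 did not pass (55.6% called, against 16.9% of all named genes), with a median log2 fold change of -0.06 beside 0.00 for all named genes. Spp1, which encodes osteopontin, read 8.56 and 8.52 in controls and 6.72 and 6.80 in Bmp4 OE samples, a log2 fold change of -1.78. Its Bmp4 OE values lay at the lower quartile, where the scale is compressed, so the fall may be understated. Tnc, which encodes tenascin C, had -1.51, whereas Tgfbi and the thrombospondin gene Thbs3 had 1.57 and 1.43. Postn, which encodes periostin, fell by 1.01, and the fibulin genes Fbln1 and Fbln2 moved apart, at -0.63 and 1.09. All of these passed an adjusted p of 0.05 in limma, the last 3 being named after their values were seen.

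Among collagens, the best known binding partners of SPARC, called genes went both ways. Of 11 measured, Col5a2 rose, Col1a1 and Col4a1 fell and 8 did not pass (27.3% called, against 16.9% of all named genes), with a median log2 fold change of -0.11. The brightest Col5a2 probe gave 0.58 on the log2 scale while 0.17 and 0.27 were read at the remaining 2, which did not pass. Col1a1 had a log2 fold change of -0.56 and Col4a1, a basement membrane chain, one of -0.54. The 8 that did not pass, named after their values were seen, ran from -0.54 for Col11a1 to 0.52 for Col2a1 (limma, adjusted p = 0.0862 and 0.052). Between them lay Col4a2, Col1a2, Col3a1, Col5a1, Col11a2 and Col5a3, at -0.345, -0.19, -0.11, -0.005, 0.03 and 0.115.

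Among 20 proteoglycan core proteins, the wider class of the testicans, 4 rose, 2 fell and 14 did not pass (30% called), with a median log2 fold change of 0.26. The glypican gene Gpc4 and the syndecan gene Sdc1 fell, with log2 fold changes of -1.57 and -1.05, and the second Gpc4 probe gave -0.52 and did not pass. Bgn and Dcn, which encode the small leucine-rich proteoglycans biglycan and decorin, both had 0.86, and of the other 2 Dcn probes 1 passed at 0.64 and 1 did not, at -0.30. Of 11 metalloproteinases and Timps, some of which testicans act on, Timp3 fell by 1.06, Mmp2 rose by 0.64 and 9 did not pass (median log2 fold change 0.03), and the 18.2% called were near the 16.9% of all named genes. Mmp14, the membrane-type enzyme, had -0.21 and did not pass.

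Among 18 secreted modulators of BMP signalling, the setting in which SMOC proteins are usually discussed, 3 rose, 2 fell and 13 did not pass (27.8% called, against 16.9% of all named genes), with a median log2 fold change of 0.02. The antagonist genes Nog, Grem1 and Chrdl2 rose, with log2 fold changes of 2.20, 0.98 and 0.64, while Chrdl1, also an antagonist gene, fell by 0.73 and its dimmer probe, at -0.13, did not pass. Chrdl2 lay below the lower quartile in both controls and 1 Bmp4 OE sample, and Chrdl1 in both Bmp4 OE samples, so both passed only through the group where they were brighter and their changes may be understated. Of 7 other genes with follistatin modules, Tmeff1 and Agrn rose, by 0.77 and 0.57, and 5 did not pass (28.6% called), with a median of 0.11. The dimmer Agrn probe gave 0.31 and did not pass. Fst, which encodes follistatin, lay below the lower quartile on all 4 arrays. Of 11 genes with thyroglobulin type-1 modules, Igfbp5 rose by 1.08, Igfbp3 fell by 0.75 and 9 did not pass, with a median of -0.04, and the 18.2% called were near the share of all named genes.

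**Figure D4:**
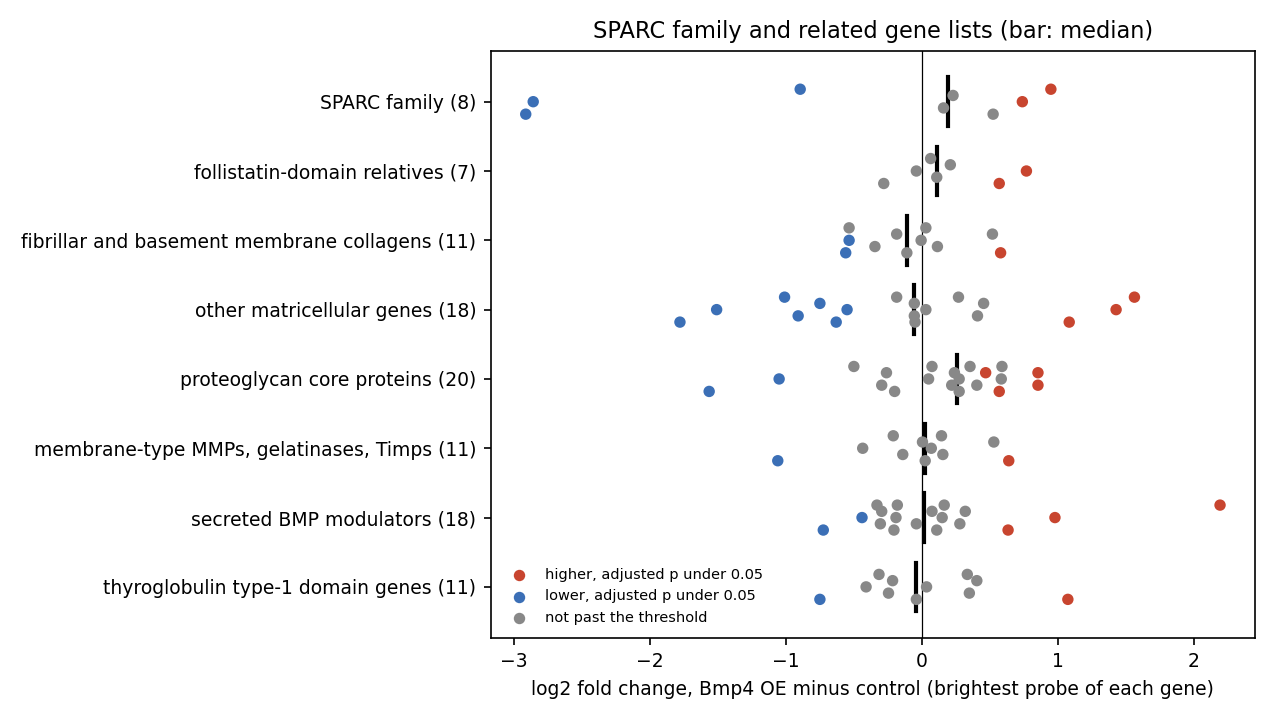
Log2 fold change of Bmp4 OE minus control for the brightest probe of each gene, with 1 row per list, the number of measured genes in brackets and the median as a bar (height within a row carries no meaning). Red and blue points passed an adjusted p of 0.05 in limma and grey points did not. Smoc1 and Smoc2 lie at -2.92 and -2.86, and the lowest related gene is Spp1 at -1.78, its Bmp4 OE values lying at the lower quartile.

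The deposited values share 1 distribution, so each array had a median of 7.95 and a maximum of 16 whatever its quality. Arrays of 1 group correlated across probes with r of 0.993 in both groups. Bmp4, the overexpressed gene, read 11.96 and 12.07 in controls and 15.27 and 15.31 in Bmp4 OE samples (log2 intensity), higher in the samples labelled as overexpressing it. Among 8 mandibular arch mesenchyme markers, all above the lower quartile on all 4 arrays, 1 rose, 2 fell and 5 did not pass. This is 37.5% called, against 16.9% of all named genes. Prrx2 rose, with a log2 fold change of 1.17, and Twist1 and Pitx1 fell, with -1.19 and -1.28. Dlx6, Prrx1, Hand2, Dlx5 and Pdgfra, at -0.50, -0.17, -0.02, 0.11 and 0.03, did not pass. The groups did not overlap for Dlx6 and Prrx1, which was so for 63.3% of all named genes. The log2 summed intensity of the list was 15.63 to 15.65 in controls and 15.32 to 15.33 in Bmp4 OE samples, and this sum is weighted towards its brightest genes, Twist1 (14.39 on average in controls) among them. The part of these cells in the fall of Smoc1 and Smoc2 was not tested. The epithelial list had 3 rises and 2 falls among 8 genes (62.5% called, against 16.9% of all named genes) and skeletal muscle 4 rises among 8 (50%). At an adjusted p of 0.05 in limma, myeloid cells had 2 rises among 8 (25%), neurons 1 fall among 7 (14.3%) and erythroid cells 1 fall among 6 (16.7%). Neural crest glia had 0 calls among 4, where 1 gene, Sox10, had a log2 fold change of -0.59 and an unadjusted limma p under 0.05. The neuronal and erythroid shares were near that of all named genes. The neuronal fall was Nefm, at -0.56, which lay below the lower quartile in both Bmp4 OE samples. Of the neuronal markers that did not pass, Elavl3, Elavl4, Stmn2 and Tubb3 were at 0.75, 0.42, 0.40 and 0.19, and Nefl and Pou4f1 at -0.33 and -0.25.

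The calls depended on having all 4 arrays. Without control replicate 1, control replicate 2, Bmp4 OE replicate 1 or Bmp4 OE replicate 2, 0 probes of the whole table and 0 of the 8 genes passed the adjusted threshold in limma. These fits had 3 arrays and 1 residual degree of freedom, so the spread came from the group with 2 arrays, and the lone array was assumed to vary like them. The lowest adjusted p-values were 0.191, 0.138, 0.170 and 0.155, and between 6020 and 7947 probes had an unadjusted p under 0.05. In those fits the log2 fold change lay between -3.04 and -2.80 for Smoc1 (unadjusted p 0.000294 to 0.000517) and between -2.99 and -2.74 for Smoc2 (unadjusted p 0.000177 to 0.000563). It ran from 0.60 to 0.89 for Sparc, from 0.81 to 1.09 for Sparcl1 and from -0.98 to -0.81 for Spock1. Of the genes that did not pass with 4 arrays, Spock2 ranged most, from 0.35 to 0.71, Fstl1 ran from 0.20 to 0.27 and Spock3 from 0.14 to 0.18.

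**Figure D5:**
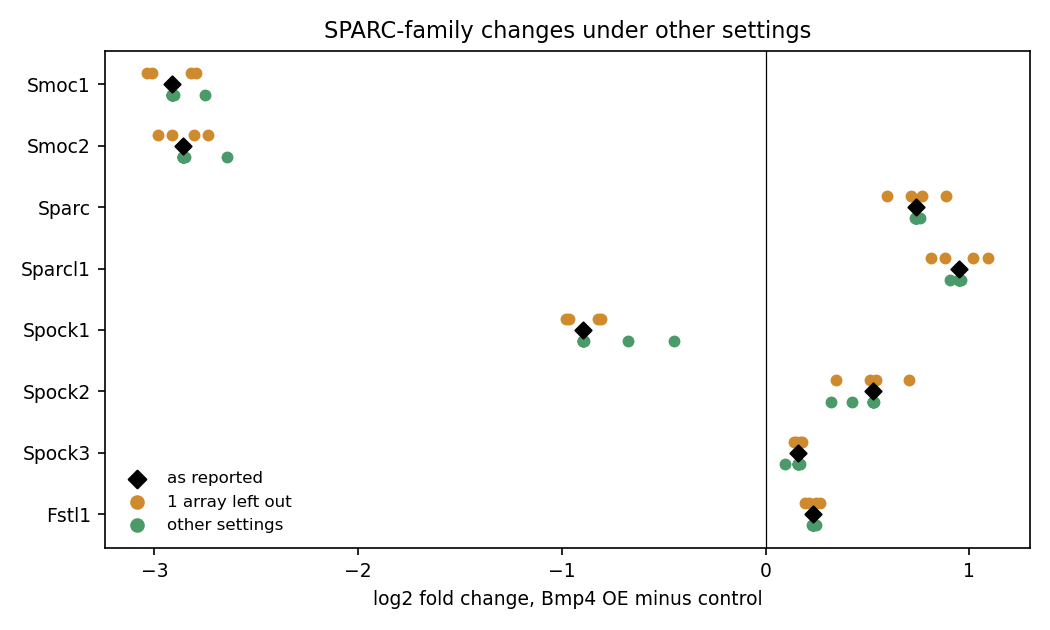
Log2 fold change of Bmp4 OE minus control for the brightest probe of each SPARC-family gene, as reported (black diamonds), with 1 array left out (orange) and under the other settings tried (green). All points of Smoc1 and Smoc2 lie between -3.04 and -2.64, and Spock1 moves from -0.90 to -0.45 when its 2 probes are averaged.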

How the data were processed

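Per the labels' protocols, total RNA from a spin-column kit was amplified with aminoallyl nucleotides and dyed with Cy5, with 1 sample per array. The deposited values are log2 intensities, the base being read from their maximum of 16. The 4 columns hold the same sorted values (largest difference 0), so they were quantile-normalised between arrays before the authors deposited them. The sources used here name no scanner, background correction or software. Such values hide a shift of most genes, and the number of arrays limits the precision.

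Probes were named from the platform annotation. The symbol was current for 17558 of the 29922 probes, was brought up to date through the GRCm38.p6 RefSeq table for 3410 and stayed unmatched for 52, while 8902 had none. The probe with the highest mean over the 4 arrays stood for a gene. Where a probe lies in its gene is not known here, and probes that read paralogs cannot be told apart.

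All probes entered a single limma model (version 3.58.1, R 4.3.3), moderated by eBayes with no trend and tested two-sided (2 residual and 3.59 prior degrees of freedom), with Benjamini-Hochberg adjustment over all probes, no filter and no covariate. The script was tested on simulated data. With 2 arrays a group, the smallest p of an exact permutation test is 0.333. Errors are standard errors or 95% intervals of the fit. The members, gene lists and motifs were chosen with earlier results of these data known. Named genes were all members, Bmp4, and up to 4 genes per list that passed without overlap between groups and had the largest absolute change. The 5 profiles nearest to Smoc1 and to Smoc2, with predicted genes left out, were also named. Further genes are said to be named after their values were seen. Pdgfrb, Mmp14, Fst, Sox10 and the mural, endothelial, mesenchyme and neuronal markers that are named but did not pass belong with these. The alternatives were other normalisations, a linear offset of 50, filters on dim probes, an intensity trend, a replicate block, left-out arrays, the stated 2-fold rule and the mean over probes.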

Additional observations from a re-analysis of the deposited data

How the results depend on the processing

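In 6 other fits of the probes, with cyclic loess, centring on the 75th percentile, an offset of 50, either filter on dim probes or an intensity trend, 4141 to 4739 probes passed in limma. The family had 5 called genes under cyclic loess, centring, the offset and the lower-quartile filter, 4 of 5 remaining genes under the median filter, 5 with the mean over probes, and 6 with an intensity trend, where Fstl1 also passed (adjusted p = 0.0254). Of the related genes, 28 to 35 passed under these settings. No log2 fold change of a member changed sign under any alternative. Leaving out any 1 array left 0 probes, 0 family genes and 0 related genes past the adjusted threshold, from a low of 0 to a high of 0. With a replicate block, 0 probes, 0 family genes and 0 related genes passed (lowest adjusted p 0.0745), although 8724 probes had an unadjusted p under 0.05. In this balanced design a block cannot move the fold changes themselves. The titles number the arrays within each group and add a code to each, whose meaning is not stated. These codes are consecutive within a group, so whatever they record cannot be told apart from the Bmp4 contrast. The deviations of same-numbered arrays correlated at -0.071, so the numbers were not taken as pairs. Under the stated 2-fold rule 786 probes, 2 family genes and 11 of 93 related genes passed. The fewer residual degrees of freedom, 1 in place of 2, are part of the block and left-out fits. Signal near the floor limits Spock3, both Spock1 probes, Spp1, Chrdl1 and Chrdl2, and the ceiling limits Fstl1.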

Other observations

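The genes next to each member on its chromosome were read as an addition chosen after the files were seen. They were taken as the nearest protein-coding gene with a probe on either side in the RefSeq table, with predicted genes left out. The neighbours of Smoc2 are Dact2 and Thbs2, and their log2 fold changes of -0.09 and -0.19 did not pass in limma (adjusted p = 0.636 and 0.481). Those of Smoc1 are Slc10a1, at -0.14, and Cox16, at -0.76, and neither passed (adjusted p = 0.408 and 0.0602). Cox16 read 10.40 and 9.85 in controls and 9.27 and 9.46 in Bmp4 OE samples (log2 intensity), so its control arrays lay further apart than those of Smoc1.

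Sparc lies between Slc36a1, an amino acid transporter gene, and Atox1, a copper chaperone gene, and both rose with it. Atox1 read log2 intensities of 13.43 and 13.41 in controls and 14.06 and 14.02 in Bmp4 OE samples, which is 0.62 higher (limma, adjusted p = 0.0204). Slc36a1 read 8.49 and 8.77 in controls and 9.56 and 9.31 in Bmp4 OE samples, which is 0.81 higher (limma, adjusted p = 0.0276). Over all named genes 7.39% rose at this threshold. Of the other neighbours, Ascc1 beside Spock2 rose by 0.65, and those of Sparcl1, Spock1, Spock3 and Fstl1 did not pass. Dspp beside Sparcl1 and Trpc7 beside Spock1 lay below the lower quartile of 6.79 on all 4 arrays. Anxa10 beside Spock3 did so in both controls and Bmp4 OE replicate 2, and Hnrnpa0 beside Spock1 lay at or near the maximum of 16. Changes in these genes could have been missed.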
